A study of Mus musculus with 15 samples.

Results

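Carriers of the solute carrier (SLC) superfamily that move sugars, amino acids, lactate and related small molecules across membranes were taken as the protein-coding genes whose mouse symbol is Slc1a, Slc2a, Slc3a, Slc6a, Slc7a, Slc16a, Slc36a, Slc38a or Slc43a followed by a number, with Slc7a11 left out. The rule gave 86 genes of the 49585 in the count table. Slc6a20a, Slc6a20b and Slc7a6os have a further letter after the number and were not counted. RNA sequencing of poly(A)-selected RNA had been done on 15 libraries of E14 mouse embryonic stem (ES) cells of wild-type genotype, 3 from each of 5 culture groups. The cells of every group had been kept in 2i/Lif, which is the MEK inhibitor PD0325901 at 0.4 µM and the GSK3 inhibitor CHIR99021 at 3 µM with the cytokine Lif at 4 ng/ml. For the experiment they were set into growth factor reduced Matrigel, at a density of 2000 per µl, and covered with N2B27, a defined medium. The groups differed in what was added to it: 2iLif, FGF2/Activin (2 growth factors), PD032, Aurka inh, or PD032+ Aurka inh, which is called the combination below. The FGF2/Activin libraries also carry the label FAK, which is not explained. The labels do not expand PD032, name the compound behind Aurka inh (Aurka is the gene of Aurora kinase A) or give a dose or duration for either, and no library here is from N2B27 alone. A single cell line was used, and nothing in the labels says whether the 3 libraries of a group came from separate cultures, so p-values measure the spread between these libraries, which may be technical.

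Cells take up glucose by facilitated diffusion through Slc2 carriers and release or take up lactate with a proton through Slc16 carriers. Large neutral amino acids such as leucine enter through Slc7 light chains, which reach the membrane bound to a heavy chain encoded by Slc3a2 or Slc3a1 and work by exchange, so that an amino acid comes in as another, often glutamine, goes out. Slc1, Slc6 and Slc38 carriers use the sodium gradient to load glutamate, glutamine, glycine, creatine and others, and Slc36, some Slc38 and Slc43 carriers work at lysosomes or as low-affinity routes. Mouse ES cells are known for fast glycolysis, for a need of glutamine that depends on their culture medium, and for breaking down threonine.

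Library totals ran from 15199507 to 24202544 counts, and 58 members had enough counts to be tested, as had 15223 genes in all. Levels are given as CPM, counts scaled to a common library total after TMM correction, and levels of different genes are compared only as CPM per kilobase of merged exons. All 8 ES cell markers (among them Pou5f1, Sox2 and Nanog) were above 1 CPM, and their summed level was 3677 to 3771 CPM in 2iLif and 2399 to 2533 in PD032, the highest and the lowest group. Single markers moved in both directions under this sum. From 2iLif to FGF2/Activin, mean Nanog went from 530 to 40.3 CPM and Zfp42 from 461 to 42.7. Utf1 rose there from 154 to 576 and Lin28a from 496 to 710, and the rest of the 8 were lower in FGF2/Activin. Of 8 primitive endoderm markers 5 reached 1 CPM in a library. The sum of the 8 was 185 to 200.4 CPM in 2iLif, almost all of it Lama1, and between 7.02 and 24.9 in the other groups. Of those that reached 1 CPM, Dab2 went the other way, from a mean of 0.218 in 2iLif to 3.86 in FGF2/Activin. Lama1, Sox7, Gata4 and Pdgfra were lower in FGF2/Activin than in 2iLif. For fibroblasts 4 of 8 markers reached 1 CPM, with sums of 4.29 to 5.14 CPM in 2iLif and 21.3 to 22.9 in FGF2/Activin and with Postn at 0 throughout. Thy1 (mean 12.5 CPM) made up most of the FGF2/Activin sum. From 2iLif to FGF2/Activin, mean Dcn went from 0 to 4.55 CPM, Col1a2 from 0.309 to 2.08 and Pdgfrb from 2.09 to 2.38. Col1a1 (0.387), Col3a1 (0.0644) and Lum (0) were low in FGF2/Activin. For trophoblast 5 of 7 reached 1 CPM, with sums of 99.5 to 104 in 2iLif and 22.4 to 27.5 in Aurka inh. In 2iLif that sum was mostly Tfap2c (mean 53.7), Krt8 (32.0) and Eomes (13.1). Means of Cdx2 (0.809), Elf5 (0.0225) and Hand1 (0) were under 1 CPM there. The part of such markers in the results below was not tested, and in bulk RNA fewer cells of a type and less RNA per cell cannot be told apart. Spry4, a target of ERK signalling, averaged 43.6 CPM in 2iLif, 56.7 in FGF2/Activin, 0.149 in PD032, 17.1 in Aurka inh and 0.646 in PD032+ Aurka inh. Dusp6, another ERK target, averaged 32.97 CPM in 2iLif, 138.1 in FGF2/Activin, 11.99 in PD032, 43.48 in Aurka inh and 11.68 in PD032+ Aurka inh. Both were lower in PD032 and the combination than in 2iLif. In Aurka inh Spry4 was lower and Dusp6 higher than in 2iLif. Replicate 2 stood apart in each of the 3 inhibitor groups: its chi-square per degree of freedom against the other libraries of its group was 9.81 to 19.2, and 2.59 to 6.74 between replicates 1 and 3. In 2iLif replicate 3 stood apart by less, at 6.95 and 6.14, with 1.34 between replicates 1 and 2. The libraries of 2iLif and FGF2/Activin are named in another style than those of the inhibitor groups, so a batch cannot be told apart from the medium where a comparison crosses the 2 styles.

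Of the 86 members, 52 reached a mean of 1 CPM in at least 1 group and 16 reached 100 CPM. The other 34 were under 1 CPM in the mean of every group. These were Slc1a2, Slc1a6 and Slc1a7 of the glutamate carriers, and Slc2a2, Slc2a6, Slc2a9, Slc2a10, Slc2a12 and Slc2a13 of the sugar carriers. They also included Slc3a1, the heavy chain of the cystine and basic amino acid carrier, and Slc6a2, Slc6a3, Slc6a4, Slc6a11, Slc6a12, Slc6a14, Slc6a17, Slc6a18, Slc6a19 and Slc6a21, which hold the noradrenaline, dopamine and serotonin carriers. Slc7a10, Slc7a12, Slc7a13, Slc7a14, Slc7a15, Slc16a7, Slc16a8, Slc16a11, Slc16a12, Slc36a2, Slc36a3, Slc38a5, Slc38a8 and Slc38a11 made up the rest. Slc6a18, Slc7a10 and Slc7a12 had no count in any of the 15 libraries. By the highest single library rather than the group mean, 32 members stayed under 1 CPM. Slc1a6, Slc1a7, Slc2a6, Slc16a7, Slc16a8 and Slc16a11 of the 34 were tested and count among the 58.

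The leucine carrier Slc7a5 and its heavy chain Slc3a2 led the members per kilobase. By group mean Slc7a5 was first in each of the 5 groups, at 213 CPM per kilobase in 2iLif, 268 in FGF2/Activin, 235 in PD032, 186 in Aurka inh and 218 in PD032+ Aurka inh. Slc3a2 was second everywhere except in PD032, where the glucose carrier Slc2a1 stood at 234 and Slc3a2 at 169. The PD032 means of Slc7a5 and Slc2a1 were nearly equal. Per kilobase Slc2a1 was above Slc7a5 in PD032 replicates 1 and 3 and below it in replicate 2. Next came Slc2a3 in 2iLif (129), Slc2a1 in FGF2/Activin (126), the glutamine carrier Slc38a2 in Aurka inh (106) and the arginine carrier Slc7a3 in the combination (125).

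More members were higher than lower in FGF2/Activin against 2iLif and in PD032 against Aurka inh, and more were lower than higher in the combination against PD032. In the combination against Aurka inh the larger side changed with the fold threshold. All tested genes leaned the same way as the members in the comparisons between inhibitor groups at an adjusted p under 0.05. At an adjusted p under 0.05 in edgeR's quasi-likelihood test, 34 of the 58 tested members were higher and 18 lower in FGF2/Activin, where 33.3% and 32.6% of all tested genes were higher and lower. The median log2 fold change of the members was 0.71, against -0.011 over all tested genes; 3 members with at most 3 counts in 2iLif lie above that median at their lower bounds too. In the combination against PD032, 12 members were higher and 20 lower (all genes 20% and 23.8%), with a median of -0.37. In the combination against Aurka inh, 19 were higher and 14 lower (18.6% and 16.3% of all genes), with a median of 0.06. In PD032 against Aurka inh, 25 were higher and 7 lower (25.8% and 19.7%), with a median of 0.26. With a minimum of 2-fold added, 23 members were higher and 11 lower in FGF2/Activin against 2iLif (all genes 16.6% and 11%), 5 and 13 in the combination against PD032 (3.72% and 10.3%), 5 and 6 against Aurka inh (3.5% and 5.57%) and 8 and 4 in PD032 against Aurka inh (8.05% and 3.69%). Among 201 tested Slc genes outside the rule, 79 were higher and 77 lower in FGF2/Activin against 2iLif. Of these 201, 48 were higher and 58 lower in the combination against PD032, and 51 and 35 in the combination against Aurka inh. In PD032 against Aurka inh 57 were higher and 42 lower. Between the inhibitor groups they thus leaned the same way as the members. The comparisons share libraries, so their counts are not independent of each other.

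**Figure D1:**
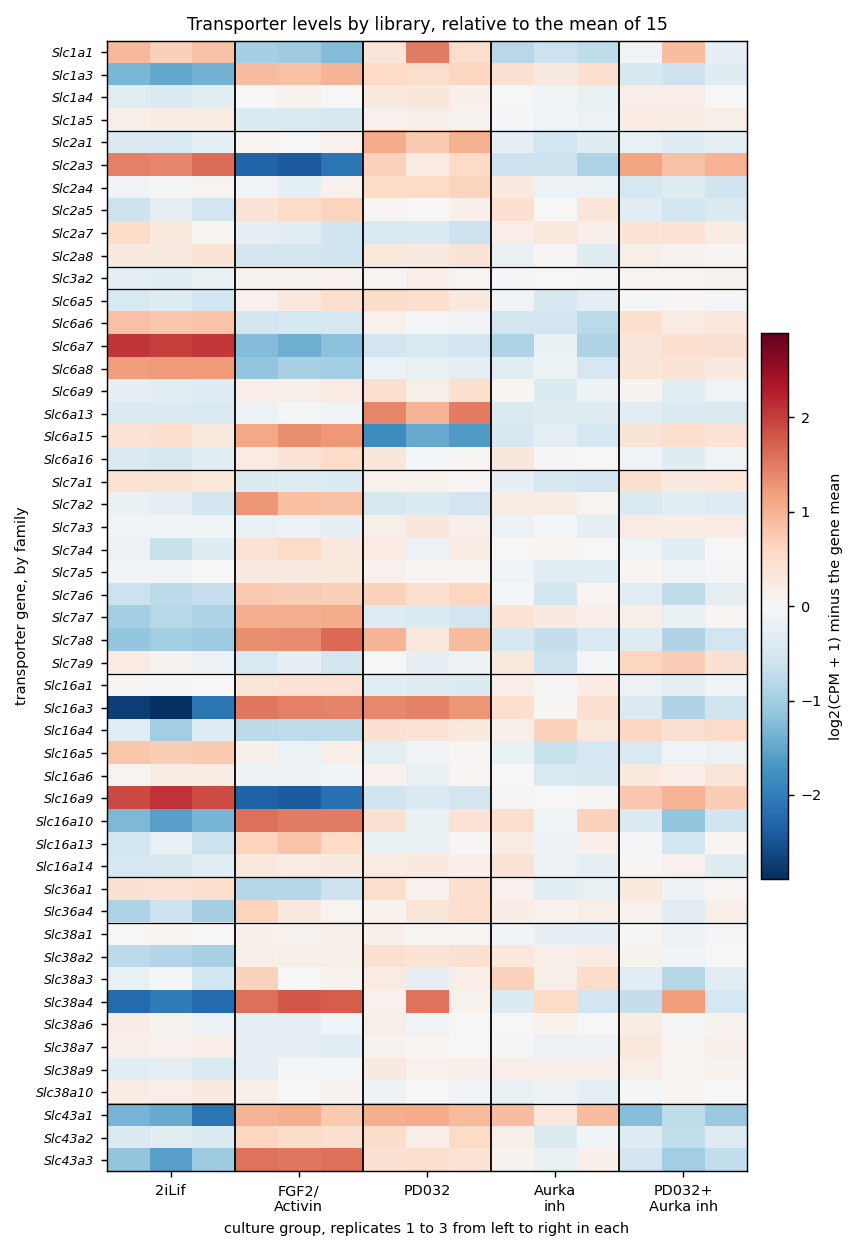
Levels of 50 of the members with a group mean of at least 1 CPM (rows) in the 15 libraries (columns), as log2(CPM + 1) minus the gene's mean over all libraries (colour). Slc2a3, Slc6a8 and Slc16a9 are highest in the 2iLif columns, Slc16a3, Slc7a7 and Slc1a3 lowest there.

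The 2 main glucose carriers differed in which medium held most of them. Slc2a3, a high-affinity glucose carrier, stood at 912, 875 and 1006 CPM in 2iLif, and at 65.5, 61.3 and 75.4 in FGF2/Activin. For Slc2a3 the inhibitor libraries gave 526, 391 and 491 CPM in PD032, 217, 219 and 177 in Aurka inh, and 724, 592 and 658 in PD032+ Aurka inh. No 2 groups overlapped, with 2iLif the highest and FGF2/Activin the lowest. It was lower in FGF2/Activin than in 2iLif (log2 fold change -3.79, SE 0.13, adjusted p = 3.5e-13), higher in the combination than in Aurka inh (log2 fold change 1.69, SE 0.11, adjusted p = 2.2e-08) and than in PD032 (log2 fold change 0.49, SE 0.11, adjusted p = 0.0018), and higher in PD032 than in Aurka inh (log2 fold change 1.20, SE 0.11, adjusted p = 3.1e-07). Slc2a1, the glucose carrier of most growing cells, stood at 322, 313 and 355 CPM in 2iLif, and at 449, 422 and 459 in FGF2/Activin. For Slc2a1 the inhibitor libraries gave 892, 708 and 861 CPM in PD032, 346, 288 and 333 in Aurka inh, and 362, 332 and 354 in PD032+ Aurka inh. The 3 PD032 libraries lay above the 12 others, FGF2/Activin lay above 2iLif, and 2iLif, Aurka inh and the combination overlapped. The difference was a log2 fold change of 1.35 (SE 0.08, adjusted p = 2.7e-09) in PD032 against Aurka inh and a log2 fold change of -1.23 (SE 0.08, adjusted p = 7.8e-09) in the combination against PD032. In FGF2/Activin against 2iLif it was a log2 fold change of 0.43 (SE 0.08, adjusted p = 0.00029), a gene given here after its values were seen. The combination against Aurka inh did not pass (log2 0.12, adjusted p = 0.31), but did with the replicate number as a block (adjusted p = 0.037). Of the summed level of both genes per kilobase, Slc2a3 made up 57.7% ± 0.186 (SD, n = 3) in 2iLif, 6.84% ± 0.451 in FGF2/Activin, 21.6% ± 0.567 in PD032, 23.6% ± 3.23 in Aurka inh and 47.6% ± 1.47 in PD032+ Aurka inh.

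Of the other sugar carriers, Slc2a8 fell and Slc2a5 rose in FGF2/Activin against 2iLif. Slc2a8, a carrier of intracellular membranes, averaged 23 ± 1.23 CPM (SD) in 2iLif and 12.2 ± 0.252 in FGF2/Activin. Means of Slc2a8 in the inhibitor groups were 23 ± 0.922 in PD032, 16.2 ± 2.25 in Aurka inh and 19.9 ± 0.715 in PD032+ Aurka inh. It was lower in FGF2/Activin than in 2iLif (log2 -0.91, adjusted p = 2.2e-07), a test given after its values were seen, and higher in PD032 (log2 0.51, adjusted p = 0.00016) and in the combination (log2 0.30, adjusted p = 0.015) than in Aurka inh. The fructose carrier Slc2a5 averaged 2.03 ± 0.423 CPM (SD) in 2iLif and 5.06 ± 0.539 in FGF2/Activin. Means of Slc2a5 in the inhibitor groups were 3.40 ± 0.190 in PD032, 4.08 ± 0.785 in Aurka inh and 2.10 ± 0.261 in PD032+ Aurka inh. It rose in FGF2/Activin (log2 1.32, adjusted p = 1.1e-05) and was lower in the combination than in Aurka inh (log2 -0.97, adjusted p = 0.00048) and PD032 (log2 -0.69, adjusted p = 0.0049). Slc2a4, the insulin-responsive carrier of muscle and fat, averaged 5.30 CPM in PD032, its highest group, and 2.02 in the combination, its lowest. Its differences were -1.40 (adjusted p = 9.4e-06), -0.67 (adjusted p = 0.012) and 0.73 (adjusted p = 0.0024) (log2) in the combination against PD032, the combination against Aurka inh and PD032 against Aurka inh. Slc2a7 ran the other way, at 0.950 CPM in PD032 and 2.45 in the combination. The log2 differences of Slc2a7 were 1.37 (adjusted p = 8.1e-05) in the combination against PD032, -1.18 (adjusted p = 0.00043) in PD032 against Aurka inh and -1.07 (adjusted p = 0.00073) in FGF2/Activin against 2iLif. The call of Slc2a4 in PD032+ Aurka inh against Aurka inh was lost with the libraries of both groups alone, without Aurka inh replicate 1 or without PD032+ Aurka inh replicate 3 (adjusted p up to 0.096), and moved to -0.43 without Aurka inh replicate 1. Slc2a8 in PD032+ Aurka inh against Aurka inh lost its call with the libraries of both groups alone, without Aurka inh replicate 3 or without PD032+ Aurka inh replicate 1 (adjusted p up to 0.12).

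Slc16a3, which exports lactate from glycolytic cells, was low in 2iLif and high in FGF2/Activin and PD032, while Slc16a1, the general lactate and pyruvate carrier, kept between 115 and 203 CPM in all 15 libraries. The promoters of Slc2a1, Slc16a1 and Slc16a3 are printed because the core letters of the hypoxia element, ACGTG, and of the E box, CACGTG, lie in them. Each is the 250 bases before the start of transcription in RefSeq (GRCm38.p6, plus strand), at chr4:119108495-119108744, chr3:104638414-104638663 and chr11:120948817-120949066, with matches to either motif in capitals.
Slc2a1: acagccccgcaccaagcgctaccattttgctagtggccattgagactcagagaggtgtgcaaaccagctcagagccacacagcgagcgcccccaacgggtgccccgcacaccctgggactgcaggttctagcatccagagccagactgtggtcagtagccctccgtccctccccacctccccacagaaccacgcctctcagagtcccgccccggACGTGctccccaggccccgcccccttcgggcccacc
Slc16a1: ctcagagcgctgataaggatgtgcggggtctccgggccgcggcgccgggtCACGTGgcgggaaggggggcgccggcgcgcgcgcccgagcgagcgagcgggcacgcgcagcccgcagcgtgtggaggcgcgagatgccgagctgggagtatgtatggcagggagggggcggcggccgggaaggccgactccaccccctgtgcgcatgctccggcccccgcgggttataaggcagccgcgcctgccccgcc
Slc16a3: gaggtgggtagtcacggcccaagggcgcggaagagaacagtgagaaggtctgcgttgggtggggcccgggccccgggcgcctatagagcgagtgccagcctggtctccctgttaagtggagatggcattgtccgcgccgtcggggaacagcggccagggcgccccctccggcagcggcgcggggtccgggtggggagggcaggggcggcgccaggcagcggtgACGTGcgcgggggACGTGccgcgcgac
Slc2a1 has 1 ACGTG, Slc16a1 has 1 CACGTG and Slc16a3 has 2 ACGTG. RefSeq promoters of 300 bases, from 250 before to 50 after the start, were given for 61 of the 86 members (82 windows). None was given for Slc2a3. On either strand, ACGTG was in 30.5% of the members' windows and 19.6% of all 32851, and CACGTG, which contains ACGTG, in 13.4% and 7.15%. Windows of 22 of the 61 members held ACGTG, among them Slc6a3, Slc7a14 and Slc16a12, which were under 1 CPM in every group. TGATGCAA, the composite element bound by ATF4 with a C/EBP factor, was in 3 windows of 2 members, Slc1a4 and Slc7a7, or 3.66% against 0.895%. The Slc7a7 windows that hold it overlap and contain the same site, so that site was counted more than once. These are matches of letters and say nothing of binding.

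Slc16a3 stood at 18.6, 16.4 and 29.2 CPM in 2iLif, and at 367, 354 and 348 in FGF2/Activin. For Slc16a3 the inhibitor libraries gave 336, 349.8 and 312 CPM in PD032, 179.7, 131 and 178 in Aurka inh, and 97.3, 70.1 and 85.6 in PD032+ Aurka inh. FGF2/Activin and PD032 overlapped at the top, followed without overlap by Aurka inh, the combination and 2iLif. It was higher in FGF2/Activin than in 2iLif (log2 fold change 4.05, SE 0.18, adjusted p = 8.7e-12) and in PD032 than in Aurka inh (log2 fold change 1.03, SE 0.15, adjusted p = 3.7e-05), and lower in the combination than in PD032 (log2 fold change -1.98, SE 0.15, adjusted p = 4e-08) and Aurka inh (log2 fold change -0.95, SE 0.15, adjusted p = 0.00015). Slc16a1 stood at 156, 147 and 152 CPM in 2iLif, and at 193, 202 and 203 in FGF2/Activin. For Slc16a1 the inhibitor libraries gave 122, 118 and 115 CPM in PD032, 172, 155 and 177 in Aurka inh, and 135, 124 and 141 in PD032+ Aurka inh. The FGF2/Activin libraries were the highest and the PD032 libraries the lowest, and 2iLif overlapped Aurka inh. Its differences were -0.51 (adjusted p = 2.4e-06) in PD032 against Aurka inh, -0.33 (adjusted p = 0.00027) in the combination against Aurka inh and 0.18 (adjusted p = 0.019) in the combination against PD032 on the log2 scale. In FGF2/Activin against 2iLif it was 0.39 (adjusted p = 1.4e-05), given after its values were seen. Slc16a3 made up 10.4% ± 2.91 of both genes per kilobase in 2iLif, 59.8% ± 1.27 in FGF2/Activin, 70.1% ± 0.951 in PD032, 44.5% ± 2.74 in Aurka inh and 34.4% ± 2.84 in PD032+ Aurka inh (SD, n = 3). The call of Slc16a1 in PD032+ Aurka inh against PD032 was lost with library size alone, without PD032 replicate 3 or without PD032+ Aurka inh replicate 3 (adjusted p up to 0.1).

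**Figure D2:**
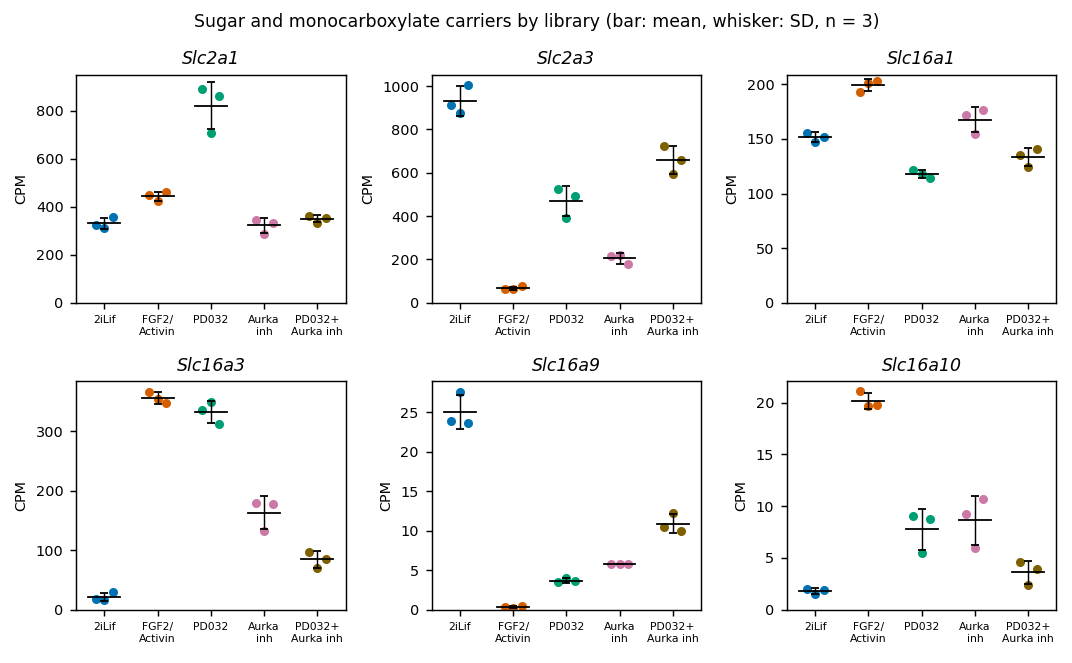
CPM of 6 sugar and monocarboxylate carriers in the 15 libraries (points), by culture group, with the mean (bar) and SD (whisker, n = 3). Slc2a3 and Slc16a9 are highest in 2iLif, Slc2a1 in PD032, and Slc16a3 in FGF2/Activin and PD032.

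Of the other Slc16 genes, Slc16a9 fell and Slc16a10, Slc16a13 and Slc16a14 rose in FGF2/Activin against 2iLif. Slc16a9, for which carnitine has been described as a substrate, stood at 24, 27.6 and 23.6 CPM in 2iLif, and at 0.327, 0.255 and 0.511 in FGF2/Activin. For Slc16a9 the inhibitor libraries gave 3.47, 3.97 and 3.60 CPM in PD032, 5.82, 5.78 and 5.82 in Aurka inh, and 10.5, 12.2 and 9.90 in PD032+ Aurka inh. No 2 groups overlapped, and 2iLif was the highest. Its log2 differences were -6.08 (adjusted p = 8.6e-14) in FGF2/Activin against 2iLif, 1.56 (adjusted p = 3.2e-08) and 0.90 (adjusted p = 1.7e-05) in the combination against PD032 and Aurka inh, and -0.66 (adjusted p = 0.00052) in PD032 against Aurka inh. Slc16a10, a carrier of aromatic amino acids, averaged 1.80 ± 0.275 CPM (SD) in 2iLif and 20.2 ± 0.795 in FGF2/Activin. Means of Slc16a10 in the inhibitor groups were 7.75 ± 2.02 in PD032, 8.62 ± 2.40 in Aurka inh and 3.62 ± 1.11 in PD032+ Aurka inh. It rose in FGF2/Activin (log2 3.48, adjusted p = 7.5e-09) and was lower in the combination than in Aurka inh (log2 -1.25, adjusted p = 0.00064) and PD032 (log2 -1.09, adjusted p = 0.0013).

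Slc16a13 rose from 4.44 CPM in 2iLif to 10.9 in FGF2/Activin (log2 1.29, adjusted p = 1.4e-05), and Slc16a14 from 0.855 to 2.00 (log2 1.21, adjusted p = 0.0022). Between the inhibitor groups neither passed a test, with means of 5.81, 6.78 and 5.69 for Slc16a13 and 1.90, 1.53 and 1.41 for Slc16a14 in PD032, Aurka inh and the combination. Slc16a5 reached 1 CPM in 2iLif alone, at 1.62, and fell in FGF2/Activin to 0.623 (log2 -1.37, adjusted p = 0.008). Slc16a4 averaged 1.55 in 2iLif, 1.20 in FGF2/Activin, 3.73 in PD032, 3.84 in Aurka inh and 4.28 in PD032+ Aurka inh, and passed no test within a naming style. Slc16a6 stood at 34.5, 37.8 and 38.3 CPM in 2iLif, and at 29.5, 29.5 and 31 in FGF2/Activin. For Slc16a6 the inhibitor libraries gave 35.5, 27.8 and 33.8 CPM in PD032, 32.4, 23.6 and 23.3 in Aurka inh, and 40.02, 37.3 and 42.1 in PD032+ Aurka inh. The lowest library was one of Aurka inh and the highest one of the combination. Levels were higher in the combination than in Aurka inh (log2 0.59, adjusted p = 0.00071), and its smaller differences were 0.30 (adjusted p = 0.038) in the combination against PD032 and 0.29 (adjusted p = 0.048) in PD032 against Aurka inh. The call of Slc16a6 in PD032+ Aurka inh against PD032 was lost with library size alone, without PD032 replicate 2 or 3 or without PD032+ Aurka inh replicate 1 or 3 (adjusted p up to 0.14). Slc16a6 in PD032 against Aurka inh lost its call with RLE size factors, in DESeq2, with the libraries of both groups alone, without PD032 replicate 1 or 3 or without Aurka inh replicate 2 or 3 (adjusted p up to 0.2), and moved to 0.47 without Aurka inh replicate 1. Exons of Slc16a6 share up to 1052 bases, and those of Slc16a9 up to 491, with other genes, in part on the other strand.

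Of the heteromeric carriers, the light chains Slc7a6, Slc7a7 and Slc7a8 rose more than 2-fold in FGF2/Activin, and Slc7a5 and the heavy chain Slc3a2 rose by less. Slc7a5, which carries leucine and other large neutral amino acids, stood at 778, 773 and 819 CPM in 2iLif, and at 984, 992 and 1002 in FGF2/Activin. For Slc7a5 the inhibitor libraries gave 897, 861 and 854 CPM in PD032, 758, 655 and 659.9 in Aurka inh, and 857, 771 and 802 in PD032+ Aurka inh. The FGF2/Activin libraries were the highest and did not overlap another group, and the Aurka inh libraries were the lowest. Its log2 differences were 0.33 (adjusted p = 0.00017) in PD032 against Aurka inh, 0.23 (adjusted p = 0.0049) in the combination against Aurka inh and, given after its values were seen, 0.33 (adjusted p = 7.9e-05) in FGF2/Activin against 2iLif. The heavy chain Slc3a2 averaged 462 ± 13.9 CPM (SD) in 2iLif and 597 ± 7.40 in FGF2/Activin. Means of Slc3a2 in the inhibitor groups were 598 ± 26.5 in PD032, 541 ± 9.43 in Aurka inh and 585 ± 9.62 in PD032+ Aurka inh, and the difference was 0.14 (adjusted p = 0.011) in PD032 against Aurka inh. In FGF2/Activin against 2iLif it was 0.37 (adjusted p = 9.8e-07), given after its values were seen. The call of Slc7a5 in PD032+ Aurka inh against Aurka inh was lost with the libraries of both groups alone (adjusted p up to 0.081). Slc3a2 in PD032 against Aurka inh lost its call with the libraries of both groups alone (adjusted p up to 0.16).

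Slc7a7, which releases basic amino acids in exchange for neutral ones, stood at 58.4, 65.8 and 62.1 CPM in 2iLif, and at 241, 240.1 and 244 in FGF2/Activin. For Slc7a7 the inhibitor libraries gave 89, 88.6 and 80.01 CPM in PD032, 153, 139 and 133 in Aurka inh, and 130.4, 99.2 and 121 in PD032+ Aurka inh. No 2 groups overlapped, in the order FGF2/Activin, Aurka inh, the combination, PD032 and 2iLif from high to low. It stood higher in FGF2/Activin than in 2iLif (log2 fold change 1.96, SE 0.09, adjusted p = 9.9e-12) and lower in PD032 than in Aurka inh (log2 fold change -0.72, SE 0.08, adjusted p = 3.3e-06), and the combination lay above PD032 (log2 0.45, adjusted p = 0.0004) and below Aurka inh (log2 -0.28, adjusted p = 0.016). Slc7a6, a light chain of the same exchange, averaged 10.8 ± 0.565 CPM (SD) in 2iLif and 30.1 ± 0.749 in FGF2/Activin. Means of Slc7a6 in the inhibitor groups were 27.5 ± 2.18 in PD032, 16 ± 3.66 in Aurka inh and 13.1 ± 2.46 in PD032+ Aurka inh. It rose in FGF2/Activin (log2 1.47, adjusted p = 2.6e-07), was higher in PD032 than in Aurka inh (log2 0.77, adjusted p = 0.00029) and lower in the combination than in PD032 (log2 -1.06, adjusted p = 1.5e-05). Slc7a8, a neutral amino acid exchanger like Slc7a5, stood at 0.649, 0.811 and 0.716 CPM in 2iLif, and at 8.05, 8.16 and 10.1 in FGF2/Activin. For Slc7a8 the inhibitor libraries gave 5.98, 3.38 and 5.74 CPM in PD032, 1.59, 1.19 and 1.61 in Aurka inh, and 1.75, 0.939 and 1.41 in PD032+ Aurka inh. FGF2/Activin was highest and PD032 next, without overlap, and Aurka inh overlapped the combination. Fitted differences were a log2 fold change of 3.59 (SE 0.27, adjusted p = 7.1e-09) in FGF2/Activin against 2iLif, a log2 fold change of 1.77 (SE 0.24, adjusted p = 1.5e-05) in PD032 against Aurka inh and a log2 fold change of -1.87 (SE 0.23, adjusted p = 7.6e-06) in the combination against PD032. Even in FGF2/Activin Slc7a8 made up 0.649% ± 0.0783 (SD, n = 3) of the summed level per kilobase of Slc7a5 and Slc7a8. Slc7a9, the partner of Slc3a1, reached 1 CPM in the combination alone, at 1.46, against 0.495 in PD032 (log2 1.53, adjusted p = 0.0083) and 0.545 in Aurka inh (log2 1.31, adjusted p = 0.025). The call of Slc7a7 in PD032+ Aurka inh against Aurka inh was lost with the libraries of both groups alone, without Aurka inh replicate 1 or without PD032+ Aurka inh replicate 2 (adjusted p up to 0.072), and moved to -0.17 without PD032+ Aurka inh replicate 2. Slc7a9 in PD032+ Aurka inh against Aurka inh lost its call with the libraries of both groups alone, with replicates 1 and 3 of the inhibitor groups alone, without Aurka inh replicate 3 or without PD032+ Aurka inh replicate 1 or 2 (adjusted p up to 0.1), and moved to 2.08 without Aurka inh replicate 1, 0.86 without Aurka inh replicate 2, 0.76 with replicates 1 and 3 alone. Exons of Slc7a7 share 232 bases with Oxa1l on the other strand.

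Of the arginine and lysine carriers Slc7a1, Slc7a2 and Slc7a3 and their relative by sequence Slc7a4, Slc7a1 fell and Slc7a2 and Slc7a4 rose in FGF2/Activin against 2iLif. Slc7a1 averaged 524 ± 22.5 CPM (SD) in 2iLif and 309 ± 5.67 in FGF2/Activin. Means of Slc7a1 in the inhibitor groups were 427 ± 14.7 in PD032, 305 ± 32.9 in Aurka inh and 513 ± 38.6 in PD032+ Aurka inh. It was lower in FGF2/Activin than in 2iLif (log2 -0.76, adjusted p = 6.5e-08), a test given after its values were seen. It was higher in the combination than in Aurka inh (log2 0.75, adjusted p = 6.4e-07) and PD032 (log2 0.26, adjusted p = 0.0053), and higher in PD032 than in Aurka inh (log2 0.49, adjusted p = 3e-05). Slc7a3 averaged 381 ± 2.29 CPM (SD) in 2iLif and 351 ± 6.31 in FGF2/Activin. Means of Slc7a3 in the inhibitor groups were 472 ± 32.9 in PD032, 362 ± 29.5 in Aurka inh and 473 ± 3.25 in PD032+ Aurka inh, and its differences were 0.38 (adjusted p = 4.6e-05) in PD032 and 0.39 (adjusted p = 6.6e-05) in the combination, both against Aurka inh. In FGF2/Activin against 2iLif Slc7a3 did not pass (log2 -0.12, adjusted p = 0.08). Slc7a2 passed 1 CPM in FGF2/Activin alone, at 1.91 against 0.154 in 2iLif (log2 fold change 3.58, SE 0.47, adjusted p = 5.1e-06), and Slc7a4 likewise reached 1.37 against 0.370 (log2 fold change 1.86, SE 0.38, adjusted p = 0.00043). Exons of Slc7a2 share 635 bases with Gm26584, and those of Slc7a4 share 554 with P2rx6, on the other strand.

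Among the Slc1 genes, the glutamate carriers Slc1a1 and Slc1a3 moved in opposite directions in FGF2/Activin. Slc1a3 stood at 6.23, 5.41 and 5.92 CPM in 2iLif, and at 32.4, 31.1 and 34.5 in FGF2/Activin. For Slc1a3 the inhibitor libraries gave 25.6, 24.5 and 26.7 CPM in PD032, 23.3, 20.4 and 24.1 in Aurka inh, and 12.1, 10.8 and 13 in PD032+ Aurka inh. No 2 groups overlapped, with FGF2/Activin the highest and 2iLif the lowest, although PD032 and Aurka inh lay close together. In edgeR this gave a log2 fold change of 2.48 (SE 0.10, adjusted p = 2.8e-12) in FGF2/Activin against 2iLif, a log2 fold change of -1.10 (SE 0.09, adjusted p = 4.3e-08) in the combination against PD032 and a log2 fold change of -0.92 (SE 0.09, adjusted p = 8.7e-07) against Aurka inh. PD032 against Aurka inh did not pass (log2 0.18, adjusted p = 0.088), but did with the replicate number as a block (adjusted p = 0.028). Slc1a1 stood at 4.16, 3.31 and 3.84 CPM in 2iLif, and at 0.393, 0.319 and 0.128 in FGF2/Activin. For Slc1a1 the inhibitor libraries gave 2.42, 6.49 and 2.83 CPM in PD032, 0.545, 0.755 and 0.624 in Aurka inh, and 1.52, 4.02 and 1.29 in PD032+ Aurka inh. It was low in FGF2/Activin and Aurka inh, and replicate 2 of PD032 and of the combination lay above the other libraries of its group. It was lower in FGF2/Activin than in 2iLif (log2 fold change -3.73, SE 0.61, adjusted p = 4.8e-05) and higher in PD032 (log2 fold change 2.59, SE 0.48, adjusted p = 0.00037) and the combination (log2 fold change 1.80, SE 0.51, adjusted p = 0.012) than in Aurka inh. With replicates 1 and 3 of the inhibitor groups alone these 2 differences were 2.16 and 1.26. The combination against PD032 did not pass (log2 -0.79, adjusted p = 0.11) and did with the block (adjusted p = 0.0012). The call of Slc1a1 in PD032+ Aurka inh against Aurka inh was lost without PD032+ Aurka inh replicate 2 (adjusted p up to 0.076), and moved to 1.14 without PD032+ Aurka inh replicate 2. Exons of Slc1a1 share 2631 bases with 4430402I18Rik on the other strand.

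The neutral amino acid exchangers of the family were abundant throughout, Slc1a5 between 194 and 316 CPM and Slc1a4 between 107 and 176. Slc1a5, the main glutamine exchanger of many growing cells, averaged 307 ± 6.36 CPM (SD) in 2iLif and 198 ± 5.41 in FGF2/Activin. Means of Slc1a5 in the inhibitor groups were 293 ± 7.00 in PD032, 249.9 ± 9.05 in Aurka inh and 310.2 ± 7.17 in PD032+ Aurka inh. Levels were higher in PD032 (log2 0.23, adjusted p = 0.00036) and the combination (log2 0.31, adjusted p = 3.3e-05) than in Aurka inh and, given after its values were seen, lower in FGF2/Activin than in 2iLif (log2 -0.63, adjusted p = 1.9e-09). Slc1a4, which exchanges serine and alanine, averaged 111 ± 3.97 CPM (SD) in 2iLif and 145 ± 4.99 in FGF2/Activin. Means of Slc1a4 in the inhibitor groups were 168 ± 10.2 in PD032, 132 ± 10.9 in Aurka inh and 154 ± 13.5 in PD032+ Aurka inh. It stood higher in PD032 (log2 0.35, adjusted p = 0.00083) and the combination (log2 0.22, adjusted p = 0.024) than in Aurka inh, and its difference in FGF2/Activin against 2iLif was 0.38 (adjusted p = 0.0002), also given after its values were seen. The call of Slc1a4 in PD032+ Aurka inh against Aurka inh was lost with the libraries of both groups alone, without Aurka inh replicate 3 or without PD032+ Aurka inh replicate 1 or 2 (adjusted p up to 0.14).

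Slc38a2, a sodium-driven carrier of glutamine and alanine that cells raise when amino acids are short, was higher in each of the other media than in 2iLif. It stood at 467, 444 and 414 CPM in 2iLif, and at 877, 888 and 881 in FGF2/Activin. For Slc38a2 the inhibitor libraries gave 1089, 1050.1 and 1072 CPM in PD032, 986, 904 and 933 in Aurka inh, and 853, 748 and 798 in PD032+ Aurka inh. No 2 groups overlapped, in the order PD032, Aurka inh, FGF2/Activin, the combination and 2iLif from high to low. Tests gave a log2 fold change of 1.00 (SE 0.06, adjusted p = 1.4e-10) in FGF2/Activin against 2iLif, a log2 fold change of -0.42 (SE 0.05, adjusted p = 1.1e-05) in the combination against PD032, a log2 fold change of -0.24 (SE 0.05, adjusted p = 0.003) in the combination against Aurka inh and a log2 fold change of 0.19 (SE 0.05, adjusted p = 0.011) in PD032 against Aurka inh. Slc38a4, a carrier of neutral amino acids best known from liver and placenta, stood at 1.04, 1.35 and 1.04 CPM in 2iLif, and at 28, 32.6 and 31.3 in FGF2/Activin. For Slc38a4 the inhibitor libraries gave 9.54, 27.6 and 9.42 CPM in PD032, 6.22, 13.1 and 5.61 in Aurka inh, and 5.01, 21.4 and 5.82 in PD032+ Aurka inh. In 2iLif it was near 1 CPM and in FGF2/Activin it was highest. In each inhibitor group replicate 2 was more than 2-fold above the other libraries of its group. The comparison gave a log2 fold change of 4.74 (SE 0.67, adjusted p = 1.1e-05) in FGF2/Activin against 2iLif. No test between the inhibitor groups passed for Slc38a4 without a block (log2 0.91, adjusted p = 0.15 in PD032 against Aurka inh, -0.54, adjusted p = 0.39 in the combination against PD032 and 0.37, adjusted p = 0.62 in the combination against Aurka inh). With the replicate number as a block the first 2 passed (adjusted p = 3.8e-05 and 0.00068). The call of Slc38a2 in PD032 against Aurka inh was lost with the libraries of both groups alone (adjusted p up to 0.065).

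Of the remaining Slc38 genes, the glutamine carriers Slc38a1 and Slc38a7 were higher in PD032 than in Aurka inh. Slc38a1, a glutamine carrier close to Slc38a2, averaged 328 ± 8.79 CPM (SD) in 2iLif and 356 ± 7.34 in FGF2/Activin. Means of Slc38a1 in the inhibitor groups were 347 ± 10.2 in PD032, 282 ± 22.5 in Aurka inh and 311 ± 23.2 in PD032+ Aurka inh. It was higher in PD032 than in Aurka inh (log2 0.30, adjusted p = 0.00072) and lower in the combination than in PD032 (log2 -0.16, adjusted p = 0.041). Slc38a3 averaged 1.10 ± 0.357 CPM (SD) in 2iLif and 2.09 ± 0.806 in FGF2/Activin. Means of Slc38a3 in the inhibitor groups were 1.64 ± 0.493 in PD032, 2.49 ± 0.604 in Aurka inh and 0.838 ± 0.365 in PD032+ Aurka inh. It was lower in the combination than in Aurka inh (log2 -1.55, adjusted p = 0.0025) and PD032 (log2 -0.95, adjusted p = 0.044). Slc38a7, a lysosomal glutamine carrier, averaged 83.1 ± 1.78 CPM (SD) in 2iLif and 61.4 ± 1.48 in FGF2/Activin. Means of Slc38a7 in the inhibitor groups were 78 ± 2.63 in PD032, 68.7 ± 3.76 in Aurka inh and 84.9 ± 6.96 in PD032+ Aurka inh. Levels were higher in PD032 (log2 0.18, adjusted p = 0.022) and the combination (log2 0.30, adjusted p = 0.00093) than in Aurka inh and, given after its values were seen, lower in FGF2/Activin than in 2iLif (log2 -0.44, adjusted p = 1e-05). Slc38a9, which reports lysosomal arginine to mTORC1, averaged 9.79 ± 0.657 CPM (SD) in 2iLif and 11.6 ± 1.18 in FGF2/Activin. Means of Slc38a9 in the inhibitor groups were 14.5 ± 0.750 in PD032, 14.5 ± 0.254 in Aurka inh and 13.9 ± 0.554 in PD032+ Aurka inh. It passed no test between these 3. Slc38a6 averaged 9.56 to 7.50 CPM and Slc38a10 127 to 93.4 from the highest to the lowest group. Slc38a10 was higher in the combination than in Aurka inh (log2 0.21, adjusted p = 0.0087). The call of Slc38a1 in PD032+ Aurka inh against PD032 was lost with RLE size factors, in DESeq2, with the libraries of both groups alone, with replicates 1 and 3 of the inhibitor groups alone, without PD032 replicate 1 or 3 or without PD032+ Aurka inh replicate 2 or 3 (adjusted p up to 0.19), and moved to -0.10 without PD032+ Aurka inh replicate 2. Slc38a3 in PD032+ Aurka inh against PD032 lost its call in DESeq2, with the libraries of both groups alone, without PD032 replicate 1 or 3 or without PD032+ Aurka inh replicate 2 or 3 (adjusted p up to 0.15). The call of Slc38a7 in PD032 against Aurka inh was lost in DESeq2, with the libraries of both groups alone, without PD032 replicate 1 or without Aurka inh replicate 2 or 3 (adjusted p up to 0.11). Slc38a10 in PD032+ Aurka inh against Aurka inh lost its call with the libraries of both groups alone (adjusted p up to 0.07).

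Of the Slc36 genes, Slc36a1 fell and Slc36a4 rose in FGF2/Activin. Slc36a1, a proton-driven carrier of small amino acids at the lysosome, averaged 15.1 ± 0.281 CPM (SD) in 2iLif and 6.05 ± 0.624 in FGF2/Activin. Means of Slc36a1 in the inhibitor groups were 14.3 ± 2.05 in PD032, 9.81 ± 1.83 in Aurka inh and 11.5 ± 1.85 in PD032+ Aurka inh. It fell in FGF2/Activin (log2 fold change -1.31, SE 0.16, adjusted p = 1.6e-06) and was higher in PD032 than in Aurka inh (log2 fold change 0.54, SE 0.14, adjusted p = 0.006). Slc36a4, which carries proline and tryptophan, rose in FGF2/Activin from 0.618 to 2.60 CPM (log2 fold change 2.07, SE 0.32, adjusted p = 2.7e-05). It averaged 2.58 in PD032, 2.18 in Aurka inh and 1.87 in PD032+ Aurka inh and passed no test between them.

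The 3 Slc43 genes, of which Slc43a1 and Slc43a2 carry large neutral amino acids and Slc43a3 carries purine bases, were 3 of 3 higher in FGF2/Activin than in 2iLif (all genes 33.3%) and 3 of 3 lower in the combination than in PD032 (23.8%) and than in Aurka inh (16.3%). The other families with more than 1 tested gene were split in FGF2/Activin against 2iLif (all genes 33.3% higher and 32.6% lower). Higher and lower were 5 and 4 in Slc6, 4 and 3 in Slc38 and 8 and 3 in Slc16. Slc43a1 stood at 1.23, 1.08 and 0.325 CPM in 2iLif, and at 10.3, 10.8 and 8.62 in FGF2/Activin. For Slc43a1 the inhibitor libraries gave 10.8, 10.9 and 9.64 CPM in PD032, 9.50, 6.04 and 9.56 in Aurka inh, and 1.43, 2.40 and 1.71 in PD032+ Aurka inh. PD032, FGF2/Activin and Aurka inh overlapped in part and lay above the combination and 2iLif. The difference was a log2 fold change of 3.48 (SE 0.29, adjusted p = 2.5e-08) in FGF2/Activin against 2iLif, a log2 fold change of -2.51 (SE 0.24, adjusted p = 3.4e-07) in the combination against PD032 and a log2 fold change of -2.20 (SE 0.24, adjusted p = 3.6e-06) in the combination against Aurka inh. Slc43a2 averaged 15.9 ± 0.582 CPM (SD) in 2iLif and 31.1 ± 1.83 in FGF2/Activin. Means of Slc43a2 in the inhibitor groups were 28.9 ± 4.02 in PD032, 19.9 ± 4.00 in Aurka inh and 15 ± 2.20 in PD032+ Aurka inh, and it passed with 0.97 (adjusted p = 1.4e-05), -0.95 (adjusted p = 2.9e-05) and -0.42 (adjusted p = 0.028) in the same 3 comparisons and with 0.53 (adjusted p = 0.0039) in PD032 against Aurka inh. Slc43a3 averaged 0.435 ± 0.268 CPM (SD) in 2iLif and 8.90 ± 0.228 in FGF2/Activin. Means of Slc43a3 in the inhibitor groups were 3.50 ± 0.106 in PD032, 2.39 ± 0.442 in Aurka inh and 1.00 ± 0.307 in PD032+ Aurka inh. Its differences were 4.32 (adjusted p = 8.2e-10), -1.78 (adjusted p = 1.4e-05) and -1.25 (adjusted p = 0.001). The call of Slc43a2 in PD032+ Aurka inh against Aurka inh was lost with the libraries of both groups alone, without Aurka inh replicate 1 or 3 or without PD032+ Aurka inh replicate 2 (adjusted p up to 0.16), and moved to -0.26 without Aurka inh replicate 1. Exons of Slc43a2 share 922 bases with Gm45606 on the other strand.

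The creatine, taurine and proline carriers Slc6a8, Slc6a6 and Slc6a7 were highest in 2iLif. Slc6a8, which imports creatine, stood at 372, 380.3 and 378 CPM in 2iLif, and at 72.2, 83.7 and 80.7 in FGF2/Activin. For Slc6a8 the inhibitor libraries gave 144, 139 and 134 CPM in PD032, 129, 146 and 115 in Aurka inh, and 206, 213 and 192 in PD032+ Aurka inh. The 2iLif libraries lay above all others and FGF2/Activin below, the combination came second, and PD032 and Aurka inh overlapped. Fitted differences were a log2 fold change of -2.26 (SE 0.08, adjusted p = 4.8e-13) in FGF2/Activin against 2iLif, a log2 fold change of 0.64 (SE 0.07, adjusted p = 5.2e-06) in the combination against Aurka inh and a log2 fold change of 0.55 (SE 0.07, adjusted p = 1.5e-05) in the combination against PD032. Slc6a6, the taurine carrier, stood at 370.3, 355 and 365 CPM in 2iLif, and at 143, 144 and 147 in FGF2/Activin. For Slc6a6 the inhibitor libraries gave 225, 198 and 193 CPM in PD032, 141, 140.5 and 119 in Aurka inh, and 289, 244 and 255 in PD032+ Aurka inh. No 2 groups overlapped, with 2iLif the highest and Aurka inh the lowest. In edgeR this gave a log2 fold change of -1.33 (SE 0.08, adjusted p = 2e-10) in FGF2/Activin against 2iLif, a log2 fold change of 0.98 (SE 0.07, adjusted p = 8.3e-08) in the combination against Aurka inh, a log2 fold change of 0.62 (SE 0.07, adjusted p = 5e-06) in PD032 against Aurka inh and a log2 fold change of 0.35 (SE 0.07, adjusted p = 0.00096) in the combination against PD032. The proline carrier Slc6a7 averaged 11.3 ± 0.288 CPM (SD) in 2iLif and 0.236 ± 0.0984 in FGF2/Activin. Means of Slc6a7 in the inhibitor groups were 1.12 ± 0.101 in PD032, 0.965 ± 0.580 in Aurka inh and 3.06 ± 0.193 in PD032+ Aurka inh. It fell in FGF2/Activin (log2 -5.55, adjusted p = 1.3e-10) and was higher in the combination than in Aurka inh (log2 1.72, adjusted p = 7.3e-05) and PD032 (log2 1.45, adjusted p = 0.00014).

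Slc6a15, which carries branched-chain amino acids and proline, was lowest in PD032. It stood at 9.74, 10.3 and 8.72 CPM in 2iLif, and at 16.5, 19.4 and 18.1 in FGF2/Activin. For Slc6a15 the inhibitor libraries gave 1.28, 1.93 and 1.58 CPM in PD032, 4.86, 5.72 and 4.68 in Aurka inh, and 9.34, 10.2 and 9.48 in PD032+ Aurka inh. The 3 PD032 libraries lay below the 12 others, FGF2/Activin was highest, and 2iLif overlapped the combination. Tests gave a log2 fold change of 2.60 (SE 0.14, adjusted p = 6.4e-10) in the combination against PD032, a log2 fold change of -1.67 (SE 0.15, adjusted p = 2.5e-07) in PD032 against Aurka inh and a log2 fold change of 0.93 (SE 0.12, adjusted p = 2.2e-05) in the combination against Aurka inh. In FGF2/Activin against 2iLif it was a log2 fold change of 0.91 (SE 0.11, adjusted p = 2.8e-06), given after its values were seen. Slc6a13, a carrier of the transmitter GABA, reached 1 CPM in PD032 alone. Its CPM was 2.56, 1.66 and 2.74 in the 3 PD032 libraries, and at most 0.319 in any other library. The 151 counts in PD032 stood against 2 in Aurka inh, a ratio of normalised counts of 68.7 with a 95% counting interval from 18.7 to 572, and 2 in the combination, a ratio of 79.2 (21.5 to 660.0). FGF2/Activin had 12 counts and 2iLif none, which gives at least 4.01-fold higher against a floor of 3 counts over the group.

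Among the glycine carriers, Slc6a9 averaged 27.9 ± 1.27 CPM (SD) in 2iLif and 39.8 ± 1.16 in FGF2/Activin. Means of Slc6a9 in the inhibitor groups were 45.1 ± 5.28 in PD032, 31 ± 4.82 in Aurka inh and 32.4 ± 4.92 in PD032+ Aurka inh. It stood higher in PD032 than in Aurka inh (log2 0.54, adjusted p = 0.0012), lower in the combination than in PD032 (log2 -0.48, adjusted p = 0.0029) and, given after its values were seen, higher in FGF2/Activin than in 2iLif (log2 0.51, adjusted p = 0.0013). Slc6a5, the second glycine carrier, averaged 0.835 CPM in 2iLif, 2.10 in FGF2/Activin, 2.36 in PD032, 1.09 in Aurka inh and 1.47 in PD032+ Aurka inh. Its differences were 1.33 (adjusted p = 0.00015) in FGF2/Activin against 2iLif, 1.08 (adjusted p = 0.00054) in PD032 against Aurka inh and -0.68 (adjusted p = 0.01) in the combination against PD032. Slc6a16, whose substrate is not known, rose in FGF2/Activin against 2iLif from 0.263 to 1.18 (log2 2.13, adjusted p = 0.00013). Exons of Slc6a9 share up to 1429 bases with B4galt2, Ccdc24 and Gm17114 on the other strand.

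**Figure D3:**
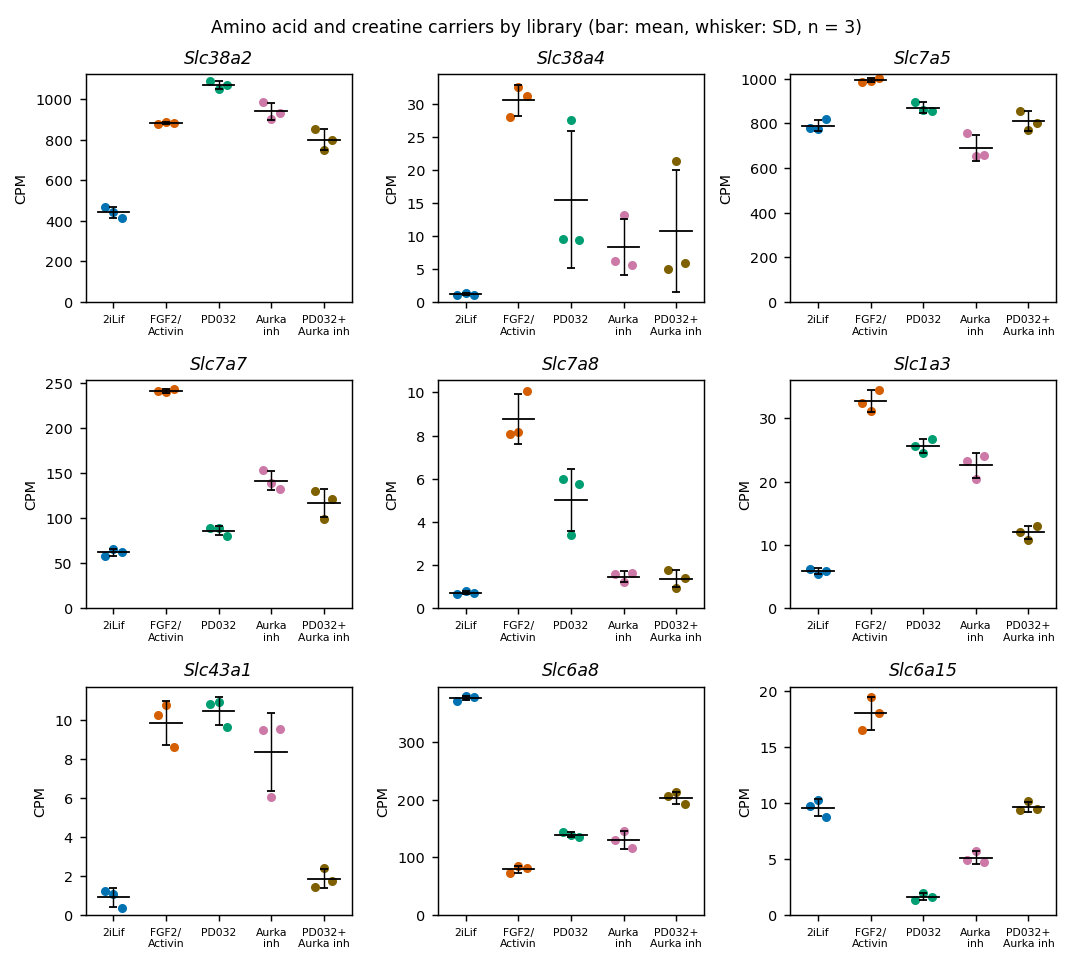
CPM of 9 amino acid and creatine carriers in the 15 libraries (points), by culture group, with the mean (bar) and SD (whisker, n = 3). Slc38a4 shows replicate 2 above the other libraries in PD032, Aurka inh and the combination, Slc6a8 is highest in 2iLif and Slc6a15 lowest in PD032.

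**Figure D4:**
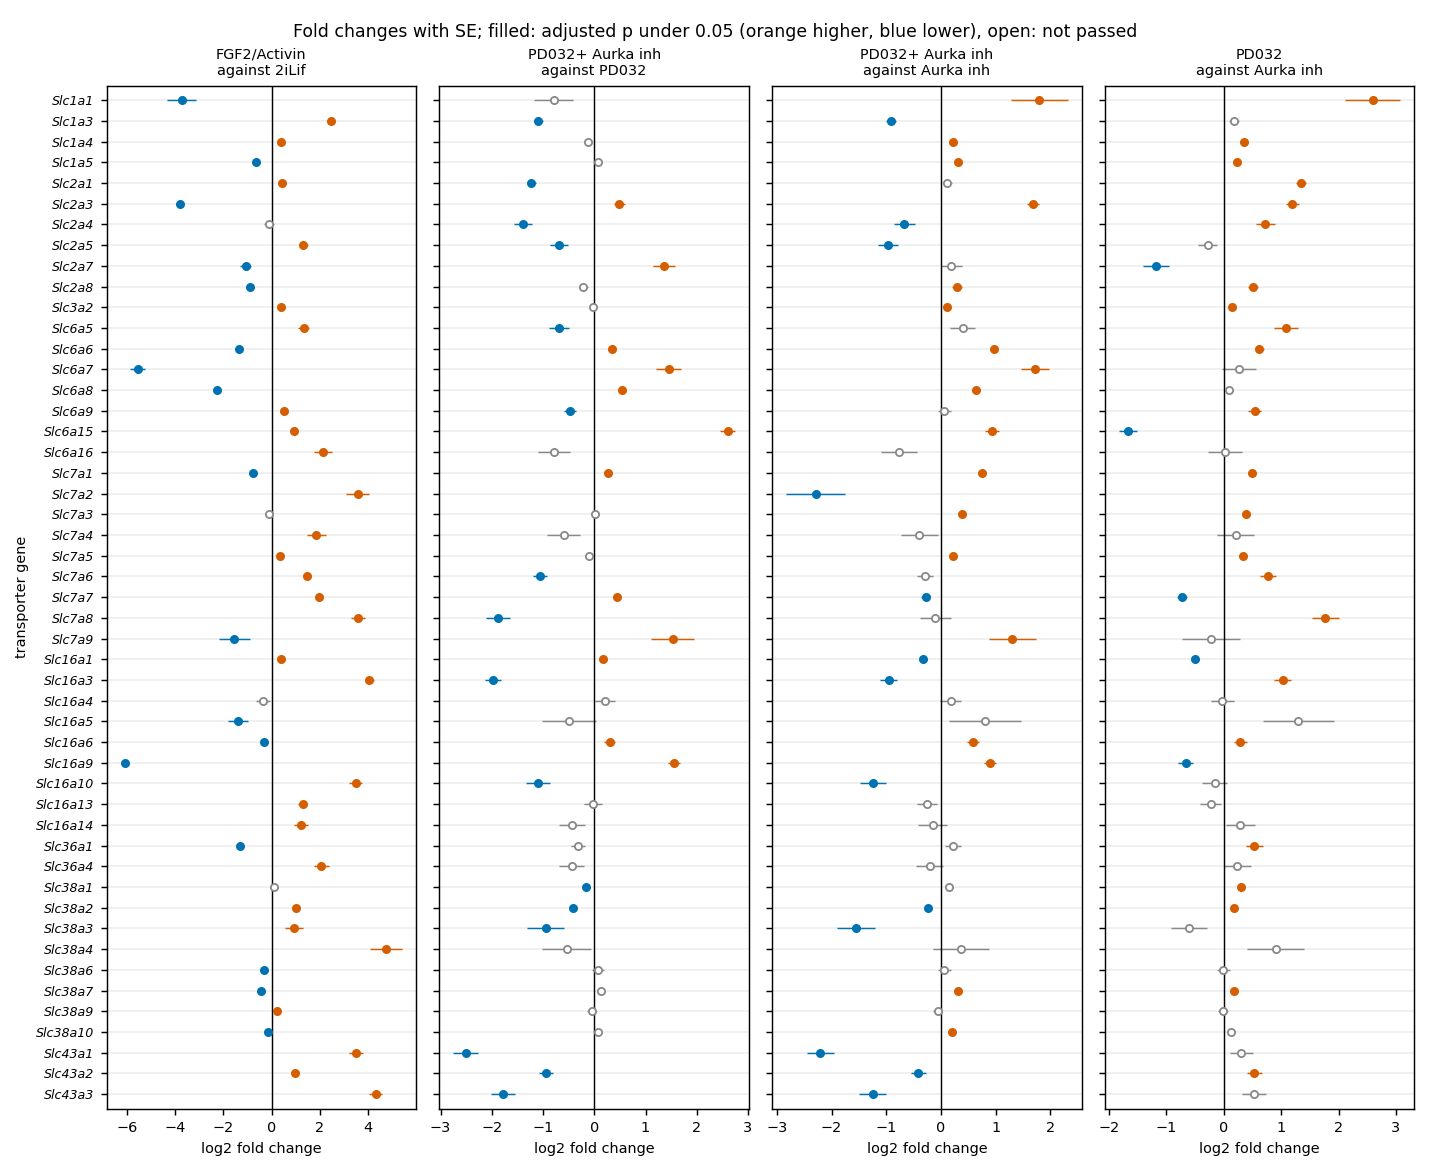
Fitted log2 fold changes (points) with SE (lines) of 49 members in the 4 comparisons within a naming style, on axes of different range. Filled points passed at an adjusted p under 0.05 (orange higher, blue lower), open ones did not; genes with at most 3 counts in a group (Slc6a13 in each comparison, Slc7a2 in some) are left out.

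Each inhibitor group was also compared with 2iLif, where medium and a possible batch cannot be told apart. In PD032, 30 members were higher and 12 lower (all genes 32.1% and 30.9%), with a median log2 fold change of 0.58. At 2-fold or more there were 20 higher and 7 lower (15.8% and 7.85% of all genes). Without replicate 2 of the inhibitor groups, Slc38a4 was higher by 3.05 (log2). Among the highest by log2 fold change were Slc16a3 (log2 3.96, adjusted p = 1.9e-11), Slc38a4 (log2 3.74, adjusted p = 0.00023), Slc43a1 (log2 3.56, adjusted p = 2.1e-08), Slc43a3 (log2 2.98, adjusted p = 3.3e-07), Slc7a8 (log2 2.80, adjusted p = 3.2e-07), Slc1a3 (log2 2.13, adjusted p = 2.7e-11) and Slc16a10 (log2 2.11, adjusted p = 7.1e-06), and among the lowest Slc6a7 (log2 -3.34, adjusted p = 1.9e-09), Slc16a9 (log2 -2.77, adjusted p = 9.8e-12) and Slc6a15 (log2 -2.59, adjusted p = 2.9e-10). The lactate exporter Slc16a3 thus stood high and the proline carrier Slc6a7 low. Slc6a13 was at least 37.8-fold higher against the floor of 3 counts.

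In Aurka inh against 2iLif, 26 members were higher and 18 lower (all genes 28.9% and 29.5%), with a median of 0.37. Past 2-fold there were 19 higher and 8 lower (12.7% and 9.03% of all genes). Among the highest were Slc43a1 (log2 3.25, adjusted p = 1e-07), Slc16a3 (log2 2.93, adjusted p = 6.5e-10), Slc38a4 (log2 2.83, adjusted p = 0.0042), Slc43a3 (log2 2.44, adjusted p = 7.1e-06) and Slc16a10 (log2 2.27, adjusted p = 3.7e-06). Among the lowest were Slc6a7 (log2 -3.61, adjusted p = 1.8e-09), Slc16a5 (log2 -3.18, adjusted p = 5.2e-05), Slc1a1 (log2 -2.56, adjusted p = 0.00034), Slc2a3 (log2 -2.19, adjusted p = 1.6e-10) and Slc16a9 (log2 -2.11, adjusted p = 1.8e-10). Both the glucose carrier Slc2a3 and the glutamate carrier Slc1a1 were among those that fell. In the combination against 2iLif, 16 were higher and 11 lower (all genes 23.8% and 23.8%), with a median of 0.16. Beyond 2-fold there were 8 higher and 4 lower (8.4% and 6.49% of all genes). The highest included Slc38a4 (log2 3.20, adjusted p = 0.0018), Slc16a3 (log2 1.98, adjusted p = 1.4e-07), Slc36a4 (log2 1.61, adjusted p = 0.00067), Slc16a4 (log2 1.46, adjusted p = 9e-05), Slc43a3 (log2 1.20, adjusted p = 0.013), Slc43a1 (log2 1.05, adjusted p = 0.024), Slc1a3 (log2 1.03, adjusted p = 6.3e-07) and Slc16a10 (log2 1.02, adjusted p = 0.012), and the lowest included Slc16a5 (log2 -2.37, adjusted p = 0.00034), Slc6a7 (log2 -1.89, adjusted p = 7.4e-07) and Slc16a9 (log2 -1.21, adjusted p = 1.2e-07). Without replicate 2 of the inhibitor groups, Slc38a4 was higher than in 2iLif by 2.37 in Aurka inh and 2.25 in the combination (log2). The call of Slc43a3 in PD032+ Aurka inh against 2iLif was lost without 2iLif replicate 2 or without PD032+ Aurka inh replicate 1 (adjusted p up to 0.071), and moved to 0.78 without 2iLif replicate 2. Slc43a1 in PD032+ Aurka inh against 2iLif lost its call without 2iLif replicate 3 or without PD032+ Aurka inh replicate 2 (adjusted p up to 0.13), and moved to 0.65 without 2iLif replicate 3. The call of Slc16a10 in PD032+ Aurka inh against 2iLif was lost without 2iLif replicate 2 or without PD032+ Aurka inh replicate 1 (adjusted p up to 0.055).

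Genes that act beside the carriers were counted from 5 lists. Of 11 proteins that escort or restrain carriers, 9 were tested, with 2 higher and 4 lower in FGF2/Activin against 2iLif (all genes 33.3% and 32.6%), 3 higher and 3 lower in the combination against PD032 (20% and 23.8%), 3 higher and 2 lower in the combination against Aurka inh (18.6% and 16.3%) and 4 higher and 2 lower in PD032 against Aurka inh (25.8% and 19.7%). Emb, the chaperone embigin that takes monocarboxylate carriers to the membrane, stood at 21.7, 23.5 and 22 CPM in 2iLif, and at 363, 362 and 373 in FGF2/Activin. For Emb the inhibitor libraries gave 378, 335 and 394 CPM in PD032, 179, 158 and 192 in Aurka inh, and 90.7, 78.5 and 89.1 in PD032+ Aurka inh. FGF2/Activin and PD032 were highest and overlapped, and Aurka inh, the combination and 2iLif followed without overlap. Its log2 differences were 4.03 (adjusted p = 4.3e-15) in FGF2/Activin against 2iLif, -2.10 (adjusted p = 8.3e-12) in the combination against PD032, -1.04 (adjusted p = 5.2e-08) in the combination against Aurka inh and 1.06 (adjusted p = 9.9e-09) in PD032 against Aurka inh. Txnip, an arrestin that takes glucose carriers off the surface, differed by 1.27 (adjusted p = 8.7e-11) and Sgk1, a kinase that holds carriers at the surface, by -1.19 (adjusted p = 1.8e-10) on the log2 scale in PD032 against Aurka inh.

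Of 35 enzymes that first meet the imported substrates, 30 were tested, with 11 higher and 13 lower in FGF2/Activin against 2iLif (all genes 33.3% and 32.6%), 8 higher and 5 lower in the combination against PD032 (20% and 23.8%), 9 higher and 7 lower against Aurka inh (18.6% and 16.3%), and 8 higher and 13 lower in PD032 against Aurka inh (25.8% and 19.7%). Hk1, the hexokinase that traps glucose, stood at 179.9, 182 and 186 CPM in 2iLif, and at 49.8, 54.8 and 54.9 in FGF2/Activin. For Hk1 the inhibitor libraries gave 132, 159 and 136 CPM in PD032, 47.1, 52.1 and 43.1 in Aurka inh, and 119, 141 and 119 in PD032+ Aurka inh. It was low in FGF2/Activin and Aurka inh, the 2 groups with the lowest Slc2a3 levels, and its log2 differences were -1.78 (adjusted p = 3e-11) in FGF2/Activin against 2iLif, 1.59 (adjusted p = 4.9e-10) in PD032 against Aurka inh and 1.41 (adjusted p = 7e-09) in the combination against Aurka inh. Ldha, which makes lactate, stood at 515, 474 and 612 CPM in 2iLif, and at 1516, 1453 and 1499 in FGF2/Activin. For Ldha the inhibitor libraries gave 909, 753 and 881 CPM in PD032, 1560.4, 1349 and 1688 in Aurka inh, and 1032, 797 and 996 in PD032+ Aurka inh. FGF2/Activin overlapped Aurka inh at the top, and 2iLif was lowest (log2 1.48, adjusted p = 5.6e-09 in FGF2/Activin against 2iLif). Ckb, a creatine kinase, stood at 386, 395 and 427 CPM in 2iLif, and at 30.7, 28.4 and 29.8 in FGF2/Activin. For Ckb the inhibitor libraries gave 99.3, 149.6 and 93.3 CPM in PD032, 76.6, 93.8 and 76.2 in Aurka inh, and 201, 234 and 212 in PD032+ Aurka inh. The 2iLif libraries were the highest, as for the creatine carrier Slc6a8, and the difference was -3.76 (adjusted p = 3.1e-12) in FGF2/Activin against 2iLif and 1.39 (adjusted p = 1e-06) in the combination against Aurka inh. Gatm, an enzyme of creatine synthesis, was higher in FGF2/Activin than in 2iLif (log2 5.00, adjusted p = 2.5e-08). Tdh, threonine dehydrogenase, stood at 744, 775 and 801 CPM in 2iLif, and at 45.2, 46.9 and 50.1 in FGF2/Activin. For Tdh the inhibitor libraries gave 111, 133 and 115 CPM in PD032, 544, 686 and 504 in Aurka inh, and 669, 714 and 669 in PD032+ Aurka inh. It was low in FGF2/Activin and PD032, with differences of -4.03 (adjusted p = 2.4e-14) in FGF2/Activin against 2iLif, -2.27 (adjusted p = 3.3e-11) in PD032 against Aurka inh and 2.51 (adjusted p = 1.3e-11) in the combination against PD032.

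Of 14 sensors upstream of mTORC1, all tested, the counts were 5 higher and 5 lower in FGF2/Activin against 2iLif (all genes 33.3% and 32.6%), 3 higher and 4 lower in the combination against PD032 (20% and 23.8%), 4 higher and 2 lower against Aurka inh (18.6% and 16.3%), and 5 higher and 1 lower in PD032 against Aurka inh (25.8% and 19.7%). Sesn3, a sestrin, was higher in PD032 than in Aurka inh (log2 1.19, adjusted p = 4.6e-09). Castor2, of the arginine sensor family, was higher in FGF2/Activin than in 2iLif (log2 1.95, adjusted p = 1.5e-06) and lower in the combination than in PD032 (log2 -1.39, adjusted p = 2.4e-05). Of 12 amino acid response genes outside the carriers, all tested, the counts were 4 higher and 7 lower in the first of these comparisons, then 2 higher and 4 lower, 3 higher and 3 lower and 6 higher and 0 lower in the others in that order, beside the shares of all genes just given for the sensors. Ddit4, which restrains mTORC1, was higher (log2 1.48, adjusted p = 5.7e-11) and Ddit3 lower (log2 -1.14, adjusted p = 1.3e-06) in FGF2/Activin than in 2iLif. Of 14 hypoxia targets outside the carriers, 13 were tested, with 9 higher and 2 lower (all genes 33.3% and 32.6%), 4 higher and 5 lower (20% and 23.8%), 4 higher and 3 lower (18.6% and 16.3%) and 7 higher and 1 lower (25.8% and 19.7%) in the same order. Bnip3, of this list, was higher in FGF2/Activin than in 2iLif (log2 1.99, adjusted p = 1.7e-08), and Kdm3a lower (log2 -1.42, adjusted p = 4.5e-12). Egln3, an oxygen sensor that hypoxia itself raises, was higher there (log2 3.44, adjusted p = 1.3e-10) and lower in the combination than in PD032 (log2 -2.33, adjusted p = 8.3e-08) and Aurka inh (log2 -1.76, adjusted p = 5.5e-06).

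**Figure D5:**
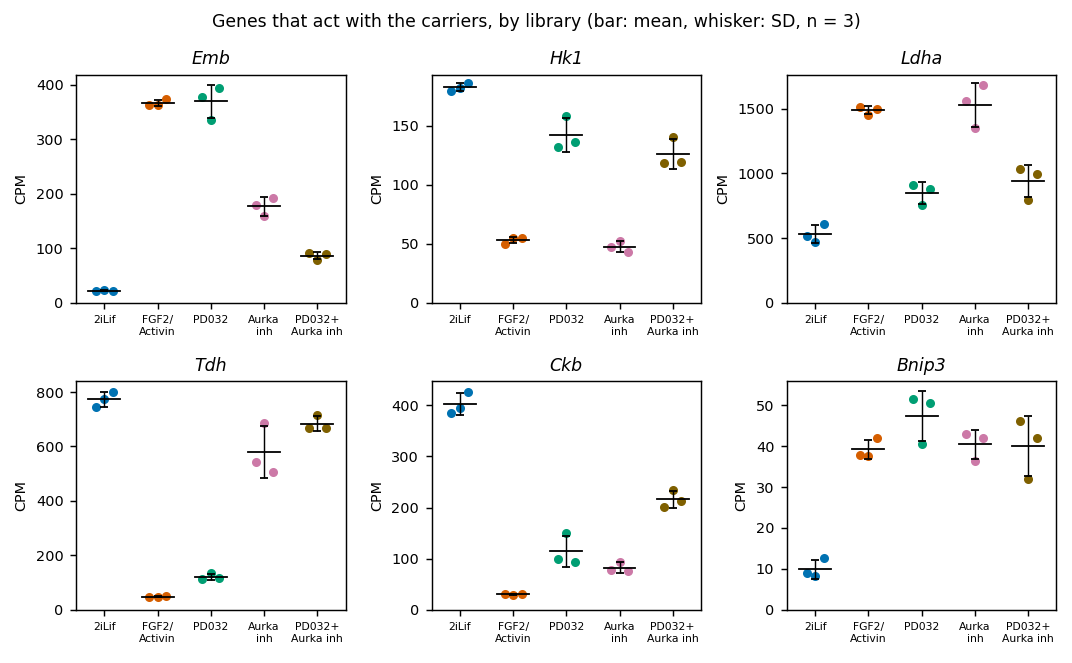
CPM of 6 genes that act beside the carriers in the 15 libraries (points), by culture group, with the mean (bar) and SD (whisker, n = 3). Emb is highest in FGF2/Activin and PD032, Hk1 lowest in FGF2/Activin and Aurka inh, Tdh lowest in FGF2/Activin and PD032, and Ckb highest in 2iLif.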

How the data were processed

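Raw counts per gene were deposited by the authors as whole numbers for 15 libraries of 5 culture groups. STAR, DESeq2 and the mm10 build are named, per the submitters' processing notes. How reads were counted, with which gene models and whether by strand, is not given in the sources used here, so reads in the exons that 18 members share with genes of the other strand may be assigned to either. A second table of normalized values was not used here. Gene positions and merged exon lengths came from GENCODE M21, which held 49326 of the 49585 genes.

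Counts were fitted in edgeR 4.0.16 (R 4.3.3; TMM factors, filterByExpr, quasi-likelihood test, all 15 libraries, a term per group), with Benjamini-Hochberg adjustment over 15223 genes and a threshold of 0.05. Library totals limit the precision of low members, and intervals and floors cover counting error alone. Alternatives were RLE factors, library size alone, no filter, DESeq2 1.42.0, the libraries of both groups alone, a replicate block, a 2-fold minimum and each library left out, and, added after the data were seen, replicates 1 and 3 of the inhibitor groups alone. Among the inhibitor groups, same-numbered libraries deviated together (r from 0.17 to 0.483 over genes). This was clearest for replicate 2, with r from 0.407 to 0.483, where the highest r with another number was -0.284 to -0.19. For replicate 3 the same number gave 0.17 to 0.196 and the highest other number 0.123 to 0.221. In PD032 against Aurka inh the other number was the higher for replicate 3, so the numbers pair these libraries only in part. Members and lists were chosen with earlier results of these data known. Each member with a group mean of 1 CPM is named, except 2 whose values are not reported here but which stay in the fits and counts, and tests are printed for up to 30 passing members by fold change (12 in comparisons with 2iLif across naming styles). Symbols, sequences and builds of promoters are from RefSeq.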

Additional observations from a re-analysis of the deposited data

How the results depend on the processing

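For members with a mean of at least 1 CPM in a group compared, 241 passing tests were followed through the other settings (3087 values); none turned direction, and 35 lost their call in at least 1 setting (134 values in all). With a minimum of 2-fold added, the counts fell from 18 to 11 members lower in FGF2/Activin against 2iLif, from 12 to 5 higher and 20 to 13 lower in PD032+ Aurka inh against PD032, from 19 to 5 higher and 14 to 6 lower in PD032+ Aurka inh against Aurka inh, and from 25 to 8 higher and 7 to 4 lower in PD032 against Aurka inh. Against 2iLif they fell from 12 to 7 lower in PD032, from 18 to 8 lower in Aurka inh, and from 16 to 8 higher and 11 to 4 lower in PD032+ Aurka inh. With the libraries of both groups alone, 12 rather than 19 members were higher in PD032+ Aurka inh against Aurka inh. Leaving out each library gave 32 to 33 members higher and 15 to 17 lower in FGF2/Activin against 2iLif, and 16 to 26 lower in PD032+ Aurka inh against PD032. Shares of all tested genes are not given here for the libraries of both groups alone or for a library left out. The counts in these settings are therefore not read as particular to the members.

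With the replicate block, 14 members were higher and 27 lower in PD032+ Aurka inh against PD032 (12 and 20 without it). The block lost none of the calls printed in the 7 comparisons and added 10 in this one, 5 in each of the other 2 among the inhibitor groups, 2 in FGF2/Activin against 2iLif and 0, 1 and 4 in PD032, Aurka inh and PD032+ Aurka inh against 2iLif. The share of all tested genes called with the block is not given here, so the added calls are not read as particular to the members. FGF2/Activin and 2iLif libraries share a number without deviating together (r from -0.026 to 0.00713), as do those of 2iLif and the inhibitor groups (-0.0448 to 0.0654). Depth limits the members under 1 CPM most, of which 28 were not tested.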
